A study of Mus musculus with 12 samples.

Results

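The genes described here encode the proteins of the cytosolic ribosome, the particle that translates nuclear messenger RNAs. They are the rows of an expression table of mouse calf muscle whose symbol is Rpsa or Rpl, Rps or Rplp followed by a number and at most a short suffix (a, x, l, l1 or al), so that rows named as pseudogenes and the Rps6k kinases stayed out. The rule, which used symbols and no measured value, found 85 genes among 30488 rows, 53 named for the large subunit and 32 for the small subunit. By the GENCODE annotation 82 of them are protein coding and 3, Rps4l, Rpl6l and Rpl32l, are annotated as processed pseudogenes, which are copies of a messenger RNA put back into the genome. The ribosomal protein genes Rps3a1, Fau and Rack1 have names outside the rule and are given with the other translation genes at the end.

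Gastrocnemius, the large muscle of the calf, was sequenced from 12 mice aged 32 weeks on a standard diet, in 4 groups of 3 mice. The mice differed in Gmppb, the gene of a subunit of the enzyme that makes GDP-mannose, the sugar donor for glycoproteins such as dystroglycan. Wild-type mice (WT) were the control group. The KO mice were heterozygous for a deletion of 303 base pairs that removed exons 2 and 3, made with Cas9. The P32L mice were heterozygous for a C-to-T change at base 95 of the coding sequence, and the R287Q mice were homozygous for a G-to-A change at its base 860. The KO and P32L mice thus still carry an allele without the change, and the RNA came from a weighed piece of muscle that holds all of its cell types. The study asked how Gmppb changes affect muscle, and each mutant group was compared with WT and with the other mutant groups.

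A ribosome holds a single copy of most of its proteins, and unpaired ribosomal proteins are degraded, so their genes are usually expressed together and at high levels. Their messenger RNAs typically begin with a run of pyrimidines, the terminal oligopyrimidine (TOP) tract, through which the mTORC1 kinase complex and the RNA-binding protein Larp1 control how strongly they are translated and how stable they are. A few proteins have paralogs that replace them in some tissues. The best known in striated muscle is Rpl3l, which stands in for Rpl3 in the adult large subunit.

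Start regions from the RefSeq promoter table, on build GRCm38.p6, matched 63 of the 85 genes with 75 annotated starts. Each window below is 30 bases on the strand of the gene, with the longest pyrimidine run found within 50 bases of the annotated start in capitals. The first 6 show runs that begin within 7 bases of the start. Rpl36al, Rpl7l1 and Rpl3l are shown because they are paralogs whose levels are compared further on.
Rps6 (chr4:86857349-86857378, minus strand): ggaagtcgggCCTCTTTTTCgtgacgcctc
Rpl35 (chr2:39005115-39005144, minus strand): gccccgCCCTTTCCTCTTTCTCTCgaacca
Rpl27a (chr7:109519186-109519215, plus strand): gtgagCTCCTCCCTTTTCCCTTTCTgccac
Rplp2 (chr7:141447636-141447665, plus strand): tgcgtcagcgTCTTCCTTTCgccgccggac
Rpl38 (chr11:114668568-114668597, plus strand): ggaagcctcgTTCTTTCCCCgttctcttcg
Rpl22l1 (chr3:28805499-28805528, plus strand): cgcaagcccgTTCTCTTCCCacggctgcag
Rpl36al (chr12:69184020-69184049, minus strand): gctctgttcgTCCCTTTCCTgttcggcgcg
Rpl7l1 (chr17:46782671-46782700, minus strand): cgtcgaggcgggCCTCTCTaccccgcccgg
Rpl3l (chr17:24727846-24727875, plus strand): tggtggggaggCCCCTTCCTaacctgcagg

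The longest run had a median of 10 bases over the 75 starts of ribosomal protein genes and of 7 bases over all 32851 starts of the table. A run of 8 or more pyrimidines lay within 50 bases of 80% of the starts of ribosomal protein genes and of 35.7% of all starts. The letters CTTTC on the gene's strand within the same 50 bases, which can fall inside or outside such runs, were found at 49.3% against 12.8%. The next motifs were sought on either strand from 250 bases before the start to 50 bases after it. CCGGAAG, a core bound by ETS factors, was found at 34.7% against 8.86%, and AAGATGGCG, a core bound by YY1, at 8% against 1.4%. These last motifs can overlap by their shared letters. Percentages are of starts, so a gene with several starts counts several times. Of the 6 starts of ribosomal protein genes with AAGATGGCG, several are overlapping starts of Rpl35a. The counts describe letters in these windows and say nothing of binding in this muscle.

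Ribosomal protein messenger RNAs were abundant in all 12 muscles. Levels are in TPM, a share of all transcripts that is corrected for transcript length, so that levels of different genes can be set side by side. Of the 85 genes, 83 reached a mean of at least 10 TPM and 46 a mean of at least 100 TPM, a level that 3.704% of all 9152 tested genes reached. The median ribosomal protein gene stood at 105.9 TPM and the median tested gene at 3.837 TPM. Tested genes are those with a mean of at least 1 TPM. Rpl32l (mean 0.635 TPM) and Rpl39l (mean 0.107 TPM, a paralog known from testis) fell below that filter, and the other 83 passed it.

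The highest level was that of Rplp1, a protein of the acidic stalk that recruits elongation factors to the ribosome. Its WT mice had 480.8, 565.7 and 452.5 TPM, its KO mice 476.0, 571.8 and 576.5, its P32L mice 542.8, 459.6 and 463.8, and its R287Q mice 505.3, 417.8 and 519.6. The 4 groups overlapped. After it came Rps2 (mean 401.5 TPM), Rpl41 (395.6 TPM), whose coding sequence of 75 bases is among the shortest known, Rps15 (358.5 TPM) and Rplp0 (323.5 TPM), the base of the stalk. The third stalk protein, Rplp2, which pairs with Rplp1 in the ribosome, was at 60.8 TPM.

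At the lower end were the annotated pseudogene Rps4l (11.4 TPM), Rpl7l1 (11.7 TPM) and Rps28 (12.7 TPM), followed by Rpl3 (13.7 TPM) and Rpl11 (15.8 TPM). Rpl11 and Rpl5 (73.1 TPM) enter the ribosome together with a small ribosomal RNA and, when unassembled, bind the p53 regulator Mdm2. Among other members with a role of their own, Rpl10, which joins the large subunit late in assembly, was at 291.9 TPM. Rps6, the classical substrate of the S6 kinases, was at 211.6 TPM, and Rpsa, also known as a laminin receptor, at 187.2 TPM. The means of the 83 tested genes spanned 44.3-fold.

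Many of these genes have near-identical copies elsewhere in the genome, and reads from a gene and its copy cannot be assigned with certainty. A search of the annotated transcripts with each coding sequence, at 95% identity or more over at least 80% of its length, found 507 such rows for 76 of the genes. Rows that are themselves among the 85 genes, such as Rpl6l, were not counted as copies. Most copies are annotated as processed pseudogenes, but some, such as Med21 and Ciapin1, as protein coding. The copies summed to a mean of 5700 TPM per library, beside 11230 TPM for the genes themselves. For 17 genes the copies found in this way together stood above the gene. Rpl21 was the widest case, with 24.1 TPM for the gene and 873.9 TPM over 48 copies. Rpl23 had 69.1 TPM and a single copy at 467.8 TPM, Rps10 had 32.5 TPM beside 190.8 TPM, and Rps28 had 12.7 TPM beside 30.4 TPM. Apart from Rpl21 and Rps28, these examples were picked after their values were seen. With the copies added, the order of the genes changed but the spread of the levels did not narrow (79.1-fold, SD 1.24 on the log2 scale, against 1.25 without them). The level of a gene listed here therefore carries an uncertainty that differs from gene to gene.

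**Figure D1:**
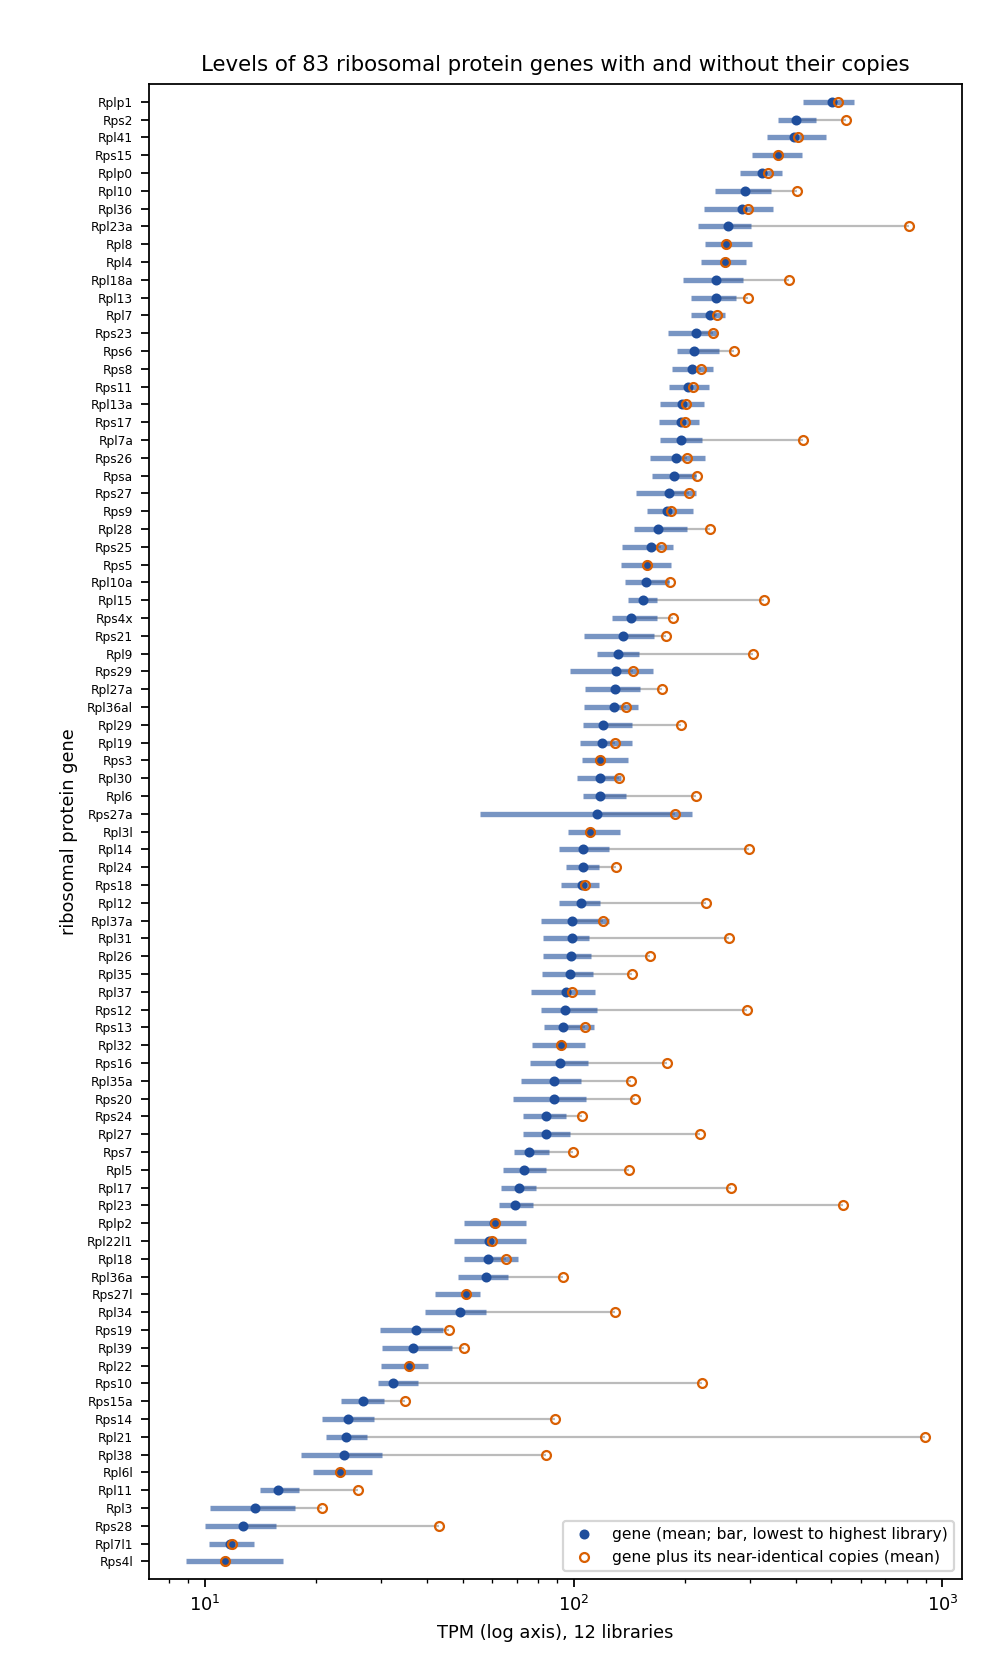
Mean level of the 83 tested ribosomal protein genes in TPM on a log axis (filled circles, with bars from the lowest to the highest of 12 libraries) and of each gene with its near-identical copies added (open circles). For 17 genes, such as Rpl21 and Rpl23, the copies exceed the gene.

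Among the paralog pairs, Rpl3l carried most of the transcripts of its pair. Rpl3l was at 126.5, 112.7 and 96.2 TPM in WT, 99.2, 133.4 and 114.3 in KO, 118.2, 98.1 and 108.8 in P32L, and 98.2, 98.5 and 121.4 in R287Q. Rpl3 was at 12.5, 12.9 and 12.8 TPM in WT, 13.4, 16.0 and 17.5 in KO, 15.1, 12.6 and 10.3 in P32L, and 13.5, 13.1 and 14.3 in R287Q. Rpl3l thus made up 88.9% of the pair on average and between 86.7% and 91.3% in single libraries. The coding sequences are 74.4% identical, well apart from the near-identical copies above, and no copy of Rpl3l was found. Rpl3 alone has 7 copies that sum to 7.13 TPM.

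The log2 ratio of Rpl3l to Rpl3 was 3.12 ± 0.21 (SD, n = 3) in WT, 2.88 ± 0.18 in KO, 3.11 ± 0.25 in P32L and 2.95 ± 0.12 in R287Q. The KO ratio lay 0.24 below WT on the log2 scale (exact two-sided permutation test, p = 0.2, adjusted over 3 comparisons 0.45). The difference was -0.016 for P32L (exact p = 1.0, adjusted 1.0) and -0.17 for R287Q (exact p = 0.3, adjusted 0.45). With 3 mice against 3 the smallest p this test can give is 0.1, so no difference could have passed a threshold of 0.05. The difference for P32L was 0.031 and 0.035 above WT when named pseudogenes or copies found by sequence were added to Rpl3.

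Rpl22l1 and Rpl36al also exceeded the partner they are named after. Rpl22l1 made up 62.0% of its pair with Rpl22 (57.5% to 66.7%) and Rpl36al made up 68.9% of its pair with Rpl36a (65.9% to 71.7%). With near-identical copies added to each, the means were closer, at 139.0 TPM for Rpl36al and 93.5 TPM for Rpl36a. The partner dominated in the remaining pairs. Rps27l made up 22.1% of the pair with Rps27, Rps4l 7.34% of the pair with the X-linked Rps4x, Rpl7l1 4.78% of the pair with Rpl7, and Rpl39l 0.299% of the pair with Rpl39. The annotated pseudogene Rpl6l, 98.7% identical to Rpl6 in its coding part, was listed at 16.5% of that pair, and Rpl32l at 0.686% of its pair with Rpl32. Rpl10l is not analysed here.

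The ribosomal protein genes moved together from mouse to mouse. Their summed level was 10553, 12135 and 10728 TPM in WT, 11001, 12841 and 12557 in KO, 12095, 10334 and 10397 in P32L, and 11208, 9697 and 11192 in R287Q. In KO mice 2 and 3 the sum exceeded every other library, while KO mouse 1 lay within the WT range. R287Q mouse 2 was the lowest of the 12. The sum was 0.971% to 1.286% of all transcripts, with group means of 11140 ± 867 TPM in WT, 12130 ± 991 in KO, 10940 ± 999 in P32L and 10700 ± 868 in R287Q (SD, n = 3). This order of the mice changed when mitochondrial genes and their nuclear copies were left out of the total. The share was then 4.976%, 4.694% and 5.161% in KO mice 1 to 3 and 4.546% in R287Q mouse 2. It was highest in R287Q mouse 1 (5.303%) and lowest in WT mouse 1 (4.151%).

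Of the 83 tested genes, 83 and 82 lay above their own mean over the 12 libraries in KO mice 2 and 3, and 27 did in KO mouse 1. In WT the same count was 16, 76 and 17, in P32L 78, 5 and 6, and in R287Q 37, 2 and 38. Mice of the same group thus differed widely in all 4 groups. The labels give no batch by which these mice could be divided.

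Other genes moved in part with this pattern. Among 531 other coding genes with transcripts of up to 1000 bases, the median deviation from the 12-library mean was 0.14 and 0.18 on the log2 scale in KO mice 2 and 3, where the ribosomal protein genes had 0.20 and 0.18. It was 0.075 in WT mouse 1, where the ribosomal protein genes had -0.085, so the lists did not always go the same way. The median of all 9152 tested genes ranged from -0.11 to 0.098. Transcripts of the mitochondrial genome took 52.98% of the total in KO mouse 2, the lowest share, and 58.4% in WT mouse 3, the highest. The part of transcript length and of the mitochondrial share in the pattern was not tested beyond the rescaled values given below.

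**Figure D2:**
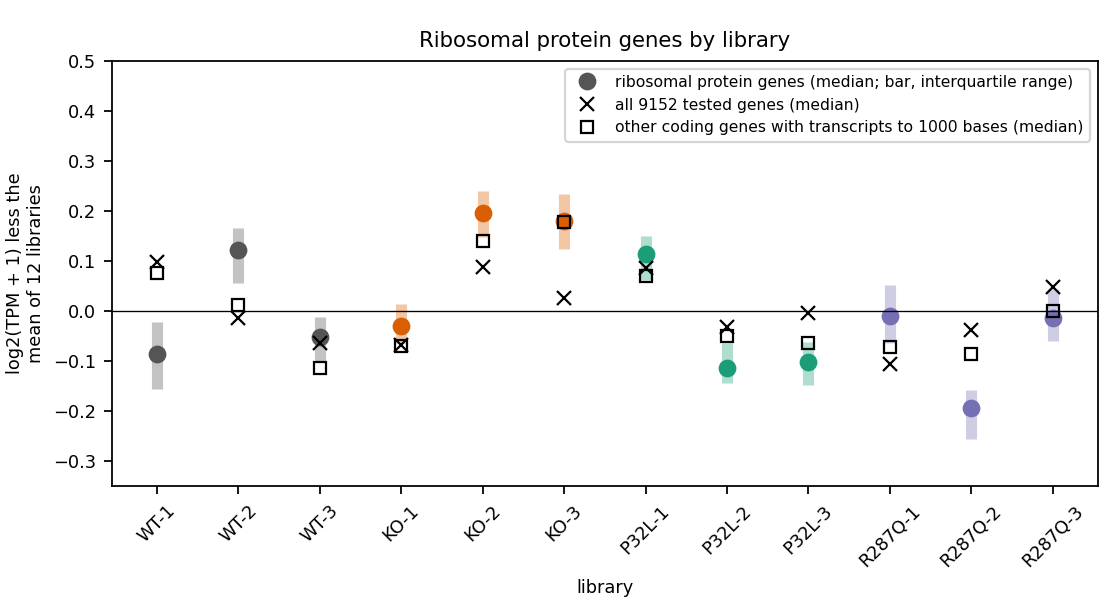
Median deviation of log2(TPM + 1) from the mean of 12 libraries for the 83 tested ribosomal protein genes (coloured circles, with bars over the interquartile range), all tested genes (crosses) and 531 other genes with short transcripts (squares), by library. KO mice 2 and 3 stand highest at 0.20 and 0.18 and R287Q mouse 2 lowest at -0.19.

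**Figure D3:**
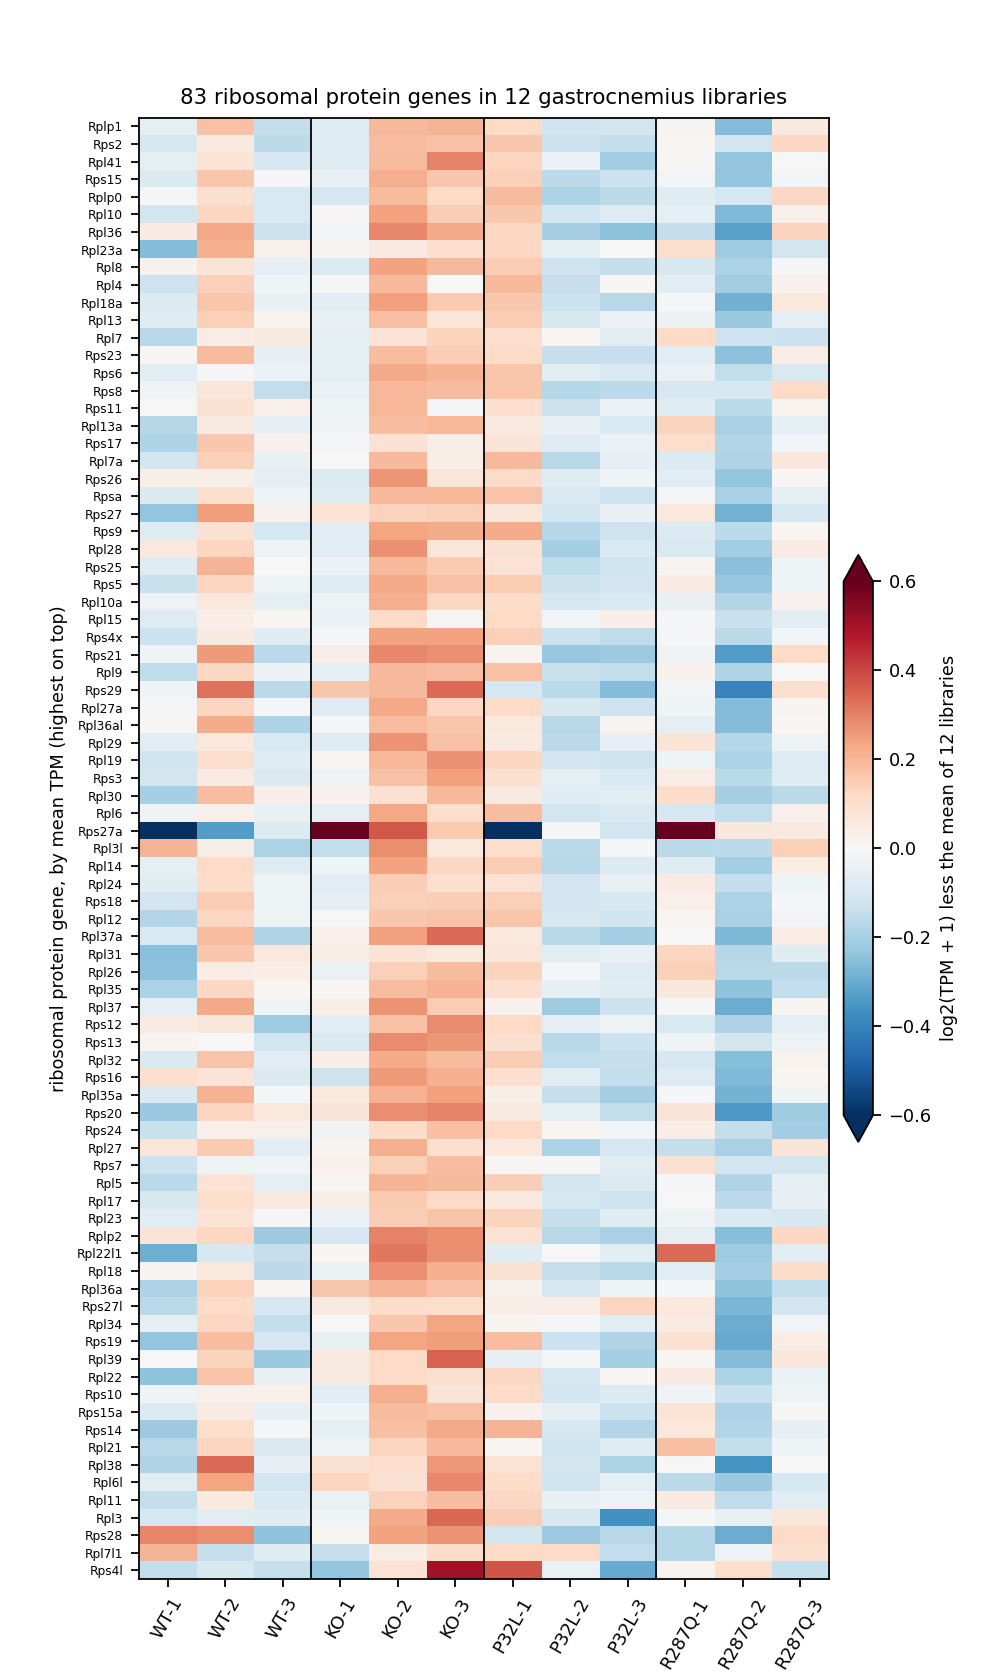
Deviation of log2(TPM + 1) from the mean of 12 libraries (colour, blue below and red above, cut at 0.6) for 83 ribosomal protein genes in rows, ordered by mean level, and 12 libraries in columns. Most columns are mainly of a single colour, and the row of Rps27a stands apart.

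Depth cannot be given, since the table holds TPM and no counts, and a single library held 997591 to 998739 TPM in all. Markers of muscle fibres (8 genes) summed to 24380 to 36890 TPM per library, with none listed at 0 in every library, as in muscle tissue. Lymphocyte markers (6 genes) stayed between 0.365 and 3.53 TPM in sum. Gmppb itself was at 4.42, 3.02 and 3.61 TPM in WT and at 3.37, 3.62 and 3.33 TPM in KO, with P32L at 3.26 to 3.57 and R287Q at 3.03 to 4.16. The KO value was 0.067 lower on the log2 scale (SE 0.12, limma adjusted p = 0.956), and a level for the whole gene with 1 intact allele does not check the label of any mouse. In bulk muscle, fewer cells of a type and less RNA per cell cannot be told apart.

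In the comparison of KO with WT, the mean of every tested ribosomal protein gene was higher in KO, but no single gene passed the test. The 83 of 83 higher means stood beside 52.1% of all tested genes. The median log2 fold change was 0.12, or 0.12 for 51 large-subunit genes and 0.14 for 32 small-subunit genes, against 0.0063 over all tested genes. limma with Benjamini-Hochberg adjustment over 9152 genes called 0 of the 83 (lowest adjusted p = 0.621), beside 1 gene called among all tested (0.0109%). At an unadjusted p under 0.05 it found 2, Rps27a and Rpl22l1, or 2.41% of the members beside 5.95% of all tested genes. The 95% interval of the fold change stayed within 1.5-fold either way for 80 of the 83, beside 84.9% of all tested genes. The genes are not independent of each other, and KO mouse 1 had a median deviation of -0.029 where the other KO mice had 0.20 and 0.18.

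The higher count was 66 of 83 when mitochondrial genes and their nuclear copies were left out, a rescaling that shifted the median of all tested genes by -0.063 on the log2 scale. The members' median less that of all tested genes was 0.11 there, against 0.12 before. After quantile normalization 63 of 83 were higher and that difference of medians was 0.077. It was 0.047 without WT mouse 1 and 0.20 without WT mouse 2, and the higher count was 72 without KO mouse 2. Beside this, markers of macrophages and monocytes summed to 49.9 to 159 TPM in WT and 146 to 249 TPM in KO. All 9 of the 11 markers that were tested had higher means in KO, 0 of them called, and none of the 11 was listed at 0 in every library. Of these 9, 9 also had higher means in P32L and 8 in R287Q than in WT, where 30 and 10 of the 83 ribosomal protein genes did. Markers of fibroblasts and fibro-adipogenic cells summed to 120 to 205 TPM in WT and 162 to 224 TPM in KO, with 6 of 6 higher in KO, 4 in P32L and 5 in R287Q. Erythroid markers summed to 993 to 2524 TPM in WT and 1786 to 2879 TPM in KO, adipocyte markers to 132 to 428 TPM and 174 to 578 TPM, and Schwann cell markers to 19.7 to 51.5 TPM and 27.7 to 76.6 TPM. All 4 tested markers of each of these lists had higher means in KO, in P32L and in R287Q than in WT, and 0 were called. Of 4 tested endothelial markers 1 was higher in KO. Markers of slow fibres (7 genes) summed to 129 to 218 TPM in WT and 29.05 to 385 TPM in KO. Their means were higher than in WT for 1 of the 7 in KO, 0 in P32L and 7 in R287Q. Of the 8 muscle fibre markers, 5 were higher in KO, 5 in P32L and 1 in R287Q. Over all tested genes, 52.1% had higher means in KO, 55.5% in P32L and 36.8% in R287Q. The part of these cell and fibre types in the ribosomal protein values was not tested.

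Groups did not overlap, with KO above WT, for 5 genes (6.024% of the members beside 4.39% of all tested genes), namely Rps27a, Rpl22l1, Rpl3, Rpl36a and Rps7. They did not overlap in the lower direction for 0 genes, beside 3.47%. Rpl22l1 was at 47.4, 54.4 and 52.9 TPM in WT and at 58.7, 72.8 and 70.9 in KO. All KO mice lay above all WT mice, by 0.38 on the log2 scale (SE 0.14, limma unadjusted p = 0.0192, adjusted p = 0.675). In P32L, Rpl22l1 was at 55.2, 58.2 and 55.5 TPM and in R287Q at 74.0, 50.01 and 55.5 TPM.

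Rps7 was at 68.9, 73.9 and 74.4 TPM in WT and at 76.9, 83.2 and 86.0 in KO (0.18 higher on the log2 scale, SE 0.086, limma adjusted p = 0.852). The named pseudogene row Rps7-ps3 stood above the gene, at 231.1, 229.9 and 253.7 TPM in WT. In KO it was at 220.6, 255.6 and 245.4 TPM, so its groups overlapped. How reads were divided between Rps7 and that row was not tested. The search by sequence did not take in that row, so Rps7 is not among the 17 genes whose copies exceeded the gene. Rpl36a was at 50.5, 63.4 and 58.0 TPM in WT and at 64.4, 66.3 and 65.0 in KO (0.19 higher, SE 0.098, limma adjusted p = 0.852). Rpl3, at the levels given above, was 0.27 higher in KO (SE 0.13, limma adjusted p = 0.852). For each of these 3 genes the lowest KO mouse lay close above the highest WT mouse.

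Rps27a had the largest fold changes and the largest spread between mice of a group. It encodes ubiquitin fused to a small-subunit protein. Its level was 55.6, 86.1 and 102.6 TPM in WT, 177.3, 141.0 and 121.6 in KO, 62.7, 108.0 and 100.3 in P32L, and 209.7, 114.0 and 113.1 in R287Q. All KO and all R287Q mice lay above all WT mice, and R287Q mouse 1 stood 3.775-fold above WT mouse 1. The other 82 tested members varied less than 2-fold, as did 81.3% of all tested genes. The difference from WT was 0.87 on the log2 scale in KO (SE 0.30, limma unadjusted p = 0.0143, adjusted p = 0.621) and 0.81 in R287Q (SE 0.30, unadjusted p = 0.0200, adjusted p = 0.792).

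The row Rps27a-ps2 matches the coding sequence of Rps27a at 99.8% identity, and the 3 mice lowest in Rps27a were the 3 highest in this row. It was at 115.9, 150.0 and 31.2 TPM in WT, 42.9, 35.5 and 100.0 in KO, 131.0, 76.8 and 59.9 in P32L, and 27.7, 38.2 and 49.5 in R287Q. With all 7 copies added, Rps27a came to 171.7, 237.1 and 133.9 TPM in WT and to 221.4, 177.2 and 222.1 in KO. It came to 193.8, 184.9 and 160.2 in P32L and to 237.4, 152.4 and 162.8 in R287Q. The summed groups overlapped, and the largest ratio between libraries fell from 3.775 to 1.773. On the summed values the log2 difference from WT was 0.22 in KO (limma adjusted p = 0.935) and 0.037 in R287Q (adjusted p = 0.997). With named pseudogene rows alone added, the difference for R287Q turned to -0.053. How the authors' tools divided reads between the gene and its copies was not tested.

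**Figure D4:**
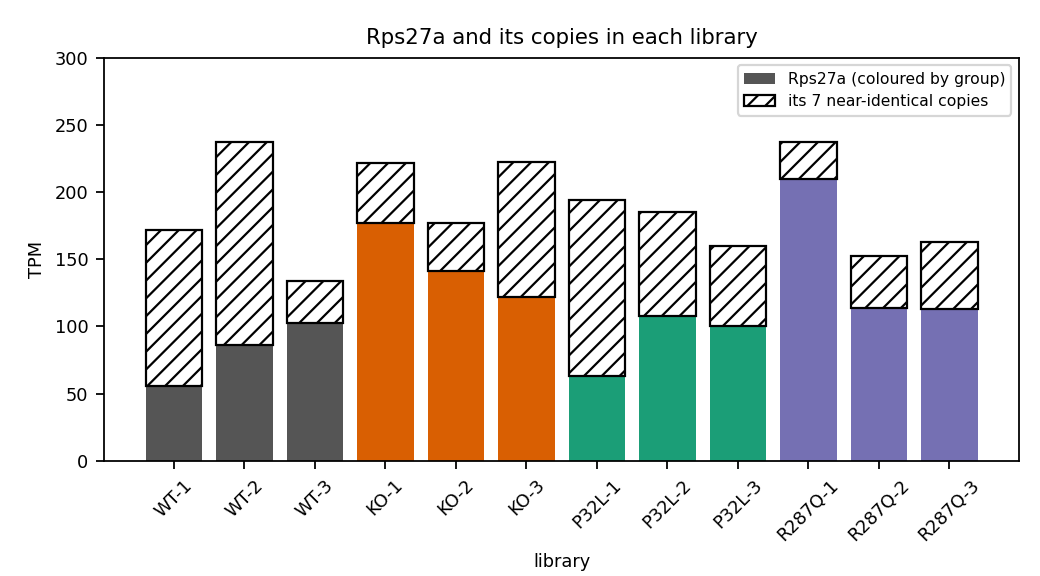
Level of Rps27a in TPM in each of 12 libraries (solid bars, coloured by group) with its 7 near-identical copies stacked on top (hatched). The gene alone runs from 55.6 to 209.7 TPM and the stacked height from 133.9 to 237.4 TPM.

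In the comparison of P32L with WT the ribosomal protein genes were split. Of the 83, 30 had higher and 53 lower means in P32L, where 55.5% of all tested genes had higher means. The median log2 fold change was -0.022, against 0.015 over all tested genes. limma called 0 (lowest adjusted p = 0.913) beside 4 of all tested genes (0.0437%), and 0 of the 83 had an unadjusted p under 0.05, beside 6.52%. The 95% interval stayed within 1.5-fold for 81 of 83, beside 85.3% of all tested genes. The split moved with single mice, from 8 higher without P32L mouse 1 to 60 higher without WT mouse 2, and was 21 higher and 62 lower under median-of-ratios scaling, where the members lay at -0.041 relative to the median of all tested genes, against -0.037 before.

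The lowest p-value among members that were lower in P32L was that of Rps28, a small-subunit protein. Rps28 was at 15.6, 15.4 and 10.4 TPM in WT and at 11.5, 10.7 and 11.1 in P32L. WT mouse 3 lay below all P32L mice, and the difference was -0.27 on the log2 scale (SE 0.15, limma adjusted p = 0.913). Rps29, another small-subunit protein, was 0.22 lower (log2 fold change -0.22, SE 0.15, limma adjusted p = 0.993), and Rpl37, Rpl35a and Rpl27 had log2 fold changes of -0.15, -0.14 and -0.13. On the other side stood Rps4l at 0.14, Rpl22l1 at 0.13, Rps27l at 0.12, Rpl11 at 0.074 and Rpl15 at 0.057, each with a limma adjusted p of 0.999. Only Rpl22l1 had groups that did not overlap (1 of 83 higher, beside 5.56% of all tested genes, and 0 lower, beside 3.65%).

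In the comparison of R287Q with WT, 10 members had higher and 73 lower means, beside 36.8% of all tested genes with higher means. The median log2 fold change was -0.060, against -0.036 over all tested genes. limma called 0 (lowest adjusted p = 0.792), as it did among all tested genes (0%). At an unadjusted p under 0.05 only Rps27a was found, beside 5.36% of all tested genes. The 95% interval stayed within 1.5-fold for 82 of 83, beside 85.9% of all tested genes. The higher count was 28 under median-of-ratios scaling, 32 after quantile normalization and 51 with mitochondrial genes left out, rescalings that shifted the median of all tested genes by 0.029, 0.029 and 0.065. Relative to that median the members lay at -0.017, -0.011 and -0.013 under them, against -0.025 before. Without WT mouse 2 or without R287Q mouse 2 the count was 41.

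Rps28 was again among the lower members, at 11.02, 9.997 and 13.7 TPM in R287Q (log2 fold change -0.23, SE 0.15, limma adjusted p = 0.982), and the groups overlapped. Rpl6l, Rpl35a, Rpl27 and Rpl13 had log2 fold changes of -0.18, -0.14, -0.14 and -0.13. Besides Rps27a, the members with the lowest p-values on the higher side were Rpl22l1 (0.19), Rps4l (0.12), Rpl3 (0.087) and Rps2 (0.077). Rpl3 and Rps27a had groups that did not overlap (2 of 83 higher, beside 3.02% of all tested genes, and 0 lower, beside 5.99%). The 3 comparisons share the WT mice, so their values are not independent of each other.

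**Figure D5:**
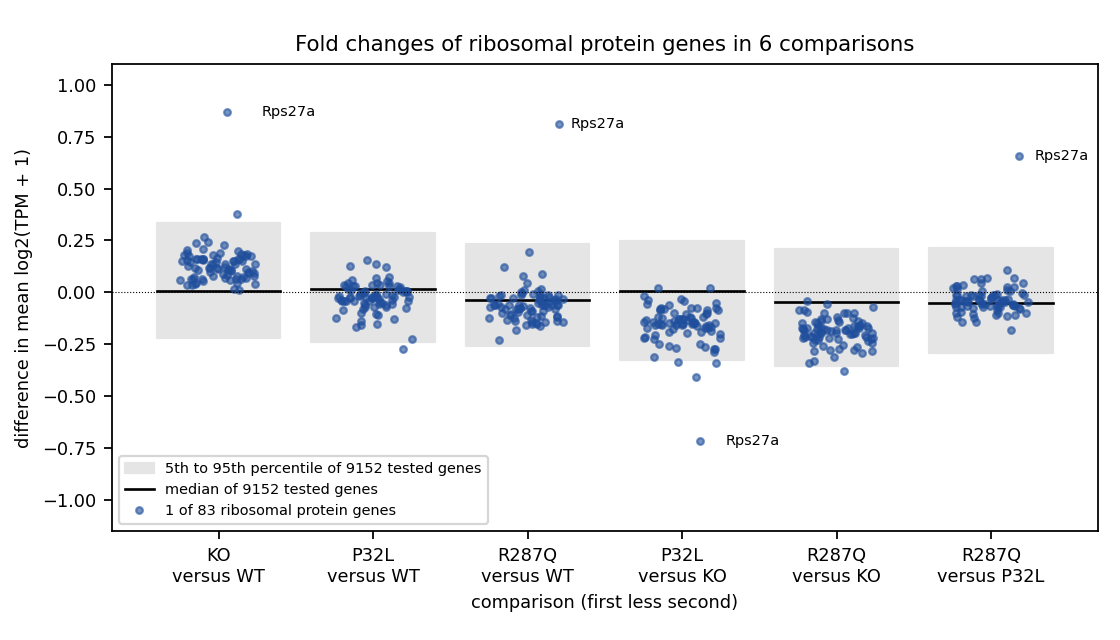
Log2 fold change of 83 ribosomal protein genes (points) in 6 comparisons, over the range from the 5th to the 95th percentile of all 9152 tested genes (grey) and their median (black line). The points lie above that line in KO versus WT and mostly below it in both comparisons with KO, and Rps27a stands apart.

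The missense groups had lower means than KO for nearly all members. The 3 KO mice enter both of these comparisons and the one with WT. P32L was below KO for 81 of 83 genes, beside 48.6% of all tested genes, with a median log2 fold change of -0.15 against 0.0046 over all tested genes. R287Q was below KO for 83 of 83, beside 65.4% of all tested genes, with a median of -0.18 against -0.046. limma called 0 of 83 in either (lowest adjusted p = 0.520 and 0.441), beside 0.0219% and 0.0437% of all tested genes.

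At an unadjusted p under 0.05 each comparison found 7 members, or 8.434%, beside 8.01% of all tested genes for P32L and 7.93% for R287Q. All 7 were lower than KO each time, beside 3.91% and 5.94% of all tested genes lower at that threshold. Groups did not overlap for 13 members lower in P32L (15.66%, beside 4.98%) and for 12 lower in R287Q (14.46%, beside 7.97%). No member was higher without overlap, beside 7.99% of all tested genes for P32L and 2.68% for R287Q. The counts of lower means fell to 66 and 72 after quantile normalization and to 75 and 64 with mitochondrial genes left out. In R287Q versus KO that last rescaling shifted the median of all tested genes by 0.13 on the log2 scale. Relative to it the members lay at -0.12, against -0.14 before.

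Rps29 was found in both comparisons. It was at 144.5, 147.6 and 163.7 TPM in KO, at 119.8, 115.2 and 107.6 in P32L and at 127.6, 97.8 and 137.7 in R287Q. All KO mice lay above all mice of both other groups. The log2 difference from KO was -0.41 in P32L (SE 0.15, limma unadjusted p = 0.0180, adjusted p = 0.520) and -0.34 in R287Q (SE 0.15, limma unadjusted p = 0.0420, adjusted p = 0.615). In WT, Rps29 was at 127.2, 161.9 and 115.0 TPM and overlapped all 3 mutant groups.

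Rpl35a, a large-subunit protein, was at 92.2, 101.9 and 104.6 TPM in KO, at 90.3, 79.8 and 76.6 in P32L and at 87.3, 72.2 and 86.4 in R287Q. Here too no mouse of the missense groups reached the lowest KO mouse. The differences were -0.27 in P32L (SE 0.11, limma adjusted p = 0.588) and -0.28 in R287Q (SE 0.11, limma adjusted p = 0.593). Rpl35a has 12 near-identical copies that summed to a mean of 54.2 TPM, and how reads were divided with them was not tested.

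For R287Q the lowest p-values were those of Rpl36a, Rpl6l and Rps20. Rpl36a was at 57.1, 48.6 and 51.7 TPM in R287Q, below the KO values given above, by -0.31 on the log2 scale (SE 0.098, limma unadjusted p = 0.00882, adjusted p = 0.441). Rpl6l was at 25.3, 24.6 and 28.4 TPM in KO and at 20.5, 19.6 and 21.4 in R287Q (log2 fold change -0.33, SE 0.11, limma adjusted p = 0.460). Rps20, a small-subunit protein, was at 92.4, 106.3 and 107.9 TPM in KO and at 92.3, 68.7 and 75.2 in R287Q (log2 fold change -0.38, SE 0.13, limma adjusted p = 0.475). The nearest mice of Rps20, at 92.4 and 92.3 TPM, all but touched. Near-identical copies summed to a mean of 35.7 TPM for Rpl36a and 58.7 TPM for Rps20. How reads were divided between these genes and their copies was not tested. Rps27a was 0.71 lower in P32L than in KO (log2 fold change -0.71, SE 0.30, limma adjusted p = 0.588), a difference of -0.20 with copies found by sequence added and -0.11 with named pseudogene rows added. The only members with higher means in P32L than in KO were Rpl15 (0.020) and Rpl7l1 (0.023).

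Between the missense groups, R287Q had higher means than P32L for 18 and lower means for 65 of the 83, beside 32.7% higher among all tested genes. The median was -0.038, against -0.049 over all tested genes. limma called 0 members (lowest adjusted p = 0.749) and 0 of all tested genes (0%), and 0 members had an unadjusted p under 0.05, beside 6.67% of all tested genes. The count of higher means was 51 under median-of-ratios scaling and 70 with mitochondrial genes left out, where the median of all tested genes shifted by 0.041 and 0.072. Relative to that median the members lay at 0.024 and 0.029, against 0.012 before. Rps27a alone had groups that did not overlap (1 of 83 higher, beside 2.31%, and 0 lower, beside 10.2%), 0.66 apart on the log2 scale (SE 0.30, limma adjusted p = 0.749), a difference that turned to -0.11 with named pseudogene rows added. After it in order of p came Rps27l (-0.18), Rpl15 (-0.12) and Rps24 (-0.14).

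Other genes of the translation machinery gave no call in any comparison. The counts of higher means below stand beside 52.1% of all tested genes in KO, 55.5% in P32L and 36.8% in R287Q. Of the ribosomal protein genes named outside the rule, Fau, Rps3a1 and Rack1 had higher means in KO than in WT, with log2 fold changes of 0.13, 0.12 and 0.085 (limma adjusted p of 0.926 to 0.951). Of 15 genes for elongation factors and other TOP messenger RNAs, 14 were higher in KO (median 0.085), led by Eef1b2 (0.26, limma adjusted p = 0.852) and Eef1a1 (0.25, adjusted p = 0.877). In P32L 12 and in R287Q 4 of the 15 were higher than in WT, and Pabpc1, the poly(A)-binding protein, had 0.19 and 0.24.

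Of the mitochondrial ribosomal proteins, which serve the separate ribosome of that organelle, 63 of 75 tested were higher in KO (median 0.075), 35 in P32L and 24 in R287Q. Of 20 ribosome assembly factors, 8 were higher in KO (median -0.020), 13 in P32L and 4 in R287Q. Rrs1, needed for large-subunit assembly, was 0.34 higher in P32L (SE 0.11, limma adjusted p = 0.510). Of 8 tested genes for RNA polymerase I and its factors, which make the ribosomal RNA precursor, 3 were higher in each mutant group. The assembly and polymerase genes thus had medians near that of all tested genes in KO, where the ribosomal proteins had 0.12. No test of that contrast between lists was made.

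Of 14 tested genes of mTORC1 and its translation targets, 8 were higher in KO, 11 in P32L and 4 in R287Q. Mlst8, a core subunit of the mTOR complexes, had the lowest p of the list in KO, at -0.28 on the log2 scale (SE 0.092, limma adjusted p = 0.619), and had -0.24 in P32L and -0.18 in R287Q. Myc, which drives ribosome synthesis in growing cells, had 0.32 in KO, 0.44 in P32L and 0.25 in R287Q (lowest limma adjusted p = 0.450, in P32L). The row of the small-subunit ribosomal RNA, Rn18s, stood at 6183, 5929 and 4339 TPM in WT and at 3536, 3734 and 3659 in KO. All KO mice were below all WT mice, the reverse of the order of the ribosomal protein means, with a log2 difference of -0.57 (SE 0.14, limma unadjusted p = 0.00154, adjusted p = 0.436). How much ribosomal RNA a library keeps depends on its preparation, and the part of that in these values was not tested.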

How the data were processed

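The deposited table holds log2(TPM + 1) by the authors for 30488 gene symbols in 12 libraries. The unit was read from the values, since each column returned to the TPM scale sums to 997591 to 998739. Libraries were made from 2 µg of RNA out of 100 mg of muscle with a kit that does not mark strand, per the labels' protocols. Per the submitters' processing notes, FastQC, HISAT2, StringTie and DESeq2 and build mm10 were used, with versions and roles not given in the sources used here. The table has no counts, so depth is unknown and no count test was run. How reads that fit several places were divided is not given in the sources used here.

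limma 3.58.1 (R 4.3.3) with a mean-variance trend was fitted to log2(TPM + 1) of all 12 libraries in 1 fit, with a term per group and 8 residual degrees of freedom, over the 9152 genes whose mean reached 1 TPM. P-values are two-sided and adjusted by Benjamini-Hochberg over those genes, with a threshold of 0.05. Fold changes on the log2(TPM + 1) scale understate those of low genes. The fit was first run on simulated data in which genes varied independently. That run does not show how the fit treats small shifts shared by many genes. The Rpl3l to Rpl3 ratio was tested by exact permutation. Gene positions are from GENCODE vM21 (mm10), start regions from RefSeq (GRCm38.p6), and copies were found with blastn 2.17.0. Symbols matched the annotation for 29333 rows (96.2%).

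Samples were grouped by the genotype labels, with 3 mice a group. The labels call them separate mice but give no litter, cage, sex or batch. Members and gene lists were chosen with earlier results of these data known, so the counts over a list support nothing by themselves, and no test of a list was made. Named members are those with the 5 lowest p-values in each direction against WT (3 between mutant groups), the 5 highest, 5 lowest and 5 most variable, members fixed for their role and paralog pairs. Of the most variable, Rps19 and Rpl36 had within-group SDs of 0.20 on the log2 scale. The alternatives covered filters, pseudocounts, scalings, variance models, the samples fitted, a block on replicate numbers, pseudogene rows and each library left out. Adding the copies found by sequence was chosen after seeing the data. A gene of the other translation lists is not reported here.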

Additional observations from a re-analysis of the deposited data

How the results depend on the processing

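Few of all genes were called under the alternative settings, at most 28 of 9152 (P32L versus WT, quantile normalization). With no filter the most was 43 of 30488 (R287Q versus KO). The number of ribosomal protein genes called stayed at 0 in each of the 6 comparisons under all 25 alternative settings, near that share. The median log2 fold change for KO versus WT stayed above 0 in all of them, between 0.058 with mitochondrial genes left out, a rescaling that shifted all tested genes by -0.063, and 0.20 without WT mouse 2. Less the median of all tested genes it was 0.12, against 0.11 with mitochondrial genes left out and 0.077 after quantile normalization. Leaving out single mice gave a range of 0.096 to 0.20 for KO, -0.096 to 0.043 for P32L (above 0 without WT mouse 2, P32L mouse 2 or P32L mouse 3) and -0.11 to -0.00047 for R287Q, each against WT. The P32L median thus changed sign with single mice, and the R287Q median did not, though it was 0.016 with mitochondrial genes left out, where all tested genes shifted by 0.065. The Rpl3l to Rpl3 log2 ratio of P32L against WT turned from -0.016 to 0.031 with named pseudogene rows and to 0.035 with copies found by sequence, and ran from -0.16 to 0.091 over single mice left out. With named pseudogene rows added, Rps27a turned to -0.11 in R287Q versus P32L and to -0.053 in R287Q versus WT, and Rpl15 in P32L versus KO to -0.00548. Leaving out single mice also turned Rpl15 (-0.017 to 0.062) and Rpl7l1 (-0.050 to 0.11) in P32L versus KO, Rpl21 (-0.023 to 0.14) and Rpl3 (-0.022 to 0.23) in R287Q versus P32L, and Rps4l in P32L versus WT (-0.045 to 0.30). Apart from the added rows themselves, the cause was not tested. Same-numbered mice did not deviate together (1 of 18 pairs correlated above 0.1, range -0.53 to 0.24, and 2 of 36 choices were best with the own number). A replicate block left 0 members called, the median for KO versus WT at 0.12 and the ratio difference for KO at -0.24 (exact p = 0.25). Without counts the depth behind each value is unknown, and TPM of genes with near-identical copies is the least certain value here.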
